A study of Drosophila melanogaster with 3 samples.

Results

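Peptidoglycan recognition proteins (PGRPs) are the proteins with which Drosophila binds the cell wall polymer of bacteria, and their genes were followed here in the larval midgut of mutants for EcR, the gene of the ecdysone receptor. The genes were taken from a list of 10 PGRP genes, and a gene counted as measured when a probe on the array carried its symbol and no other. This gave 5 genes with 1 probe each, out of 9757 named genes tested. They were the amidases PGRP-SC2 and PGRP-LB and the signalling members PGRP-LA, PGRP-LE and PGRP-LF. PGRP-SC1a and PGRP-SC1b were listed together on 2 further probes, which belong to neither gene alone and are given separately. PGRP-SA, PGRP-SD and PGRP-LC were on no probe of the annotation and were not analysed here.

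Midgut RNA of the mutants was hybridised on 3 arrays against 1 common reference. The mutants carried the alleles EcRM554fs/EcRV559fs, which remove the function of all EcR isoforms, together with the heat shock inducible transgene hs-EcR-B230.1, and were taken at stage 2a, when their development stops late in the third instar. The reference was a mixture of Canton S wild-type midgut RNA from several stages. Per the labels the 3 mutant samples were independent, and they are called replicates 3, 4 and 6 after their titles. The sources used here give neither the age of the larvae, nor the number of animals per sample, nor how active the transgene was at collection.

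PGRPs divide into enzymes and signalling members. The amidases, to which PGRP-SC1a, PGRP-SC1b, PGRP-SC2 and PGRP-LB belong, cut peptidoglycan into fragments that no longer stimulate immunity and thereby damp the response of the gut to its own bacteria. The signalling members lack this activity. PGRP-SA and PGRP-SD act upstream of the Toll pathway. The sensors PGRP-LC, at the cell surface, and PGRP-LE, inside the cell, start the Imd pathway, and PGRP-LA and PGRP-LF modulate it. The Imd pathway ends in the NF-κB factor Relish and is the main inducer of antimicrobial peptides in the fly midgut.

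All values are log2 ratios of mutant over reference, with the median of each array set to 0, so that a negative value is a lower level in the mutant. Which channel is the numerator is not stated in the deposited values. The direction was taken as likely from the labels, where the mutant is read at 635 nm as the first channel and the reference at 532 nm as the second, and with the opposite division every sign would turn. The dyes were not swapped, the reference differs from the mutant in stage and strain as well as in genotype, and none of these can be told apart in a ratio. Fewer cells of a type and less RNA per cell cannot be told apart either. Arrays correlated across the 13027 features tested with r from 0.897 to 0.939, where features are not independent replicates, and the median SD between arrays was 0.10. The probe of EcR itself stood at 1.72, 0.57 and 2.19 on replicates 3, 4 and 6 (mean 1.49 ± 0.83, SD, n = 3; limma adjusted p = 0.0044). It does not check the genotype, because the sources used here leave unstated whether the probe binds transcripts of the alleles and of the rescue construct too. Without replicate 3 its adjusted p was 0.0576.

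Of the 5 PGRP genes measured, 3 were lower in the mutant, PGRP-SC2, PGRP-LA and PGRP-LF, and 0 were higher (limma, adjusted p under 0.05 over all features). In the likely direction PGRP-SC2 and PGRP-LA were at 45.6% and 45.9% of the reference, which would be 219% and 218% with the opposite division, and PGRP-LF was lower by a smaller amount. PGRP-LB and PGRP-LE did not pass. Among all features 37.0% passed, 23.6% as lower and 13.4% as higher, so that lower calls were common on these arrays. Without adjustment, 3 members were again lower and 0 higher at p under 0.05. A plain one-sample test, which shares no variance between features, called 0 members after adjustment and 2 before it. The median over the 5 members was -0.35 and the median over all features 0.0080.

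**Figure D1:**
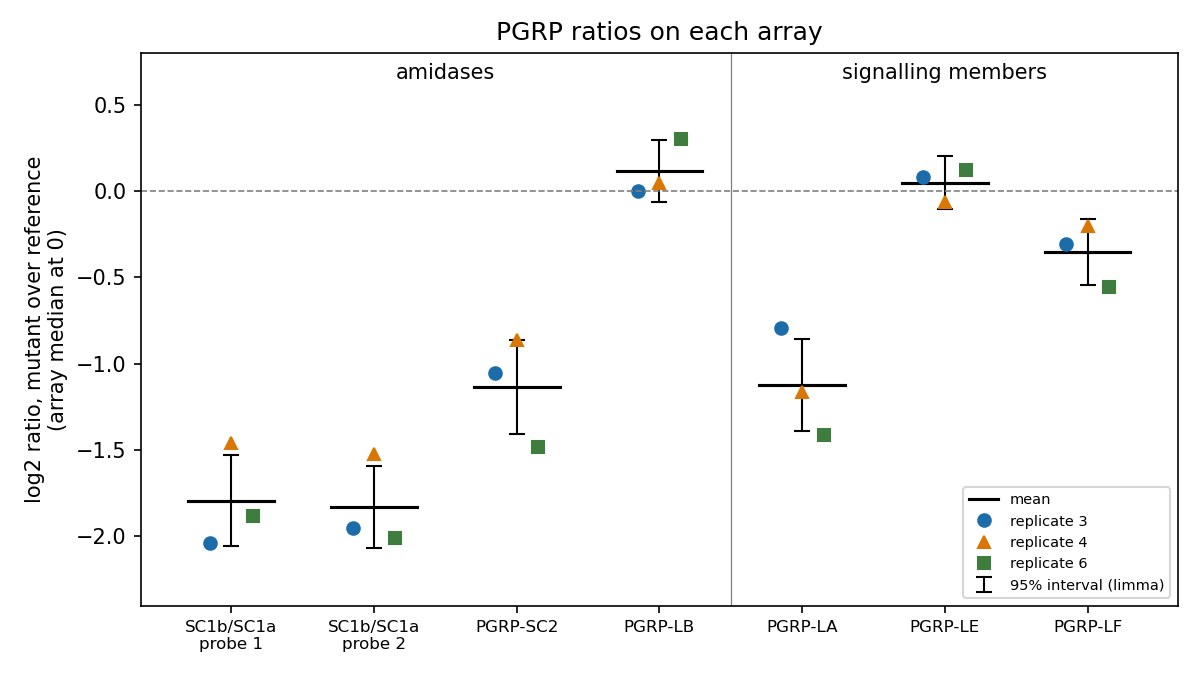
Log2 ratio of mutant over reference for the 5 measured PGRP genes and the 2 probes shared by PGRP-SC1b and PGRP-SC1a, on each of 3 arrays. Symbols are arrays, horizontal bars are means and whiskers are 95% intervals from limma. The shared probes, PGRP-SC2, PGRP-LA and PGRP-LF lie below 0 on all arrays, while PGRP-LB and PGRP-LE have intervals that include 0.

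Among the amidases, PGRP-SC2, a secreted enzyme of the gut, had ratios of -1.06 on replicate 3, -0.86 on replicate 4 and -1.48 on replicate 6. It was below the reference on every array, and the highest of its values was still far from 0. The mean was -1.13 ± 0.32 (SD, n = 3), which is 45.6% of the reference (95% interval 37.8% to 55.0%), with a limma adjusted p of 3.0e-04. The SD of PGRP-SC2 was larger than that of 95.9% of features. Because limma shares variance between features, this interval is narrower than the 3 arrays of the gene alone would give. In a plain one-sample test the adjusted p of PGRP-SC2 was 0.116. Of all features, 3.05% had a lower mean, or 96.9% with the ratio turned. PGRP-LB, an amidase with secreted and intracellular forms that is itself a target of the Imd pathway, was near the reference. Its ratios were 0.0027, 0.046 and 0.30 on replicates 3, 4 and 6. Only replicate 6 was clearly above 0. The mean of 0.12 ± 0.16 did not pass (adjusted p = 0.27), and its 95% interval of -0.06 to 0.30 leaves room for a level from 95.6% to 123% of the reference. Without replicate 6 its mean was 0.024, and it was 0.017 when chemosensory receptor probes, in place of all probes, set the 0 of each array (receptor centring). Within each array PGRP-SC2 was below PGRP-LB, with differences in ratio of -1.06, -0.91 and -1.78 and a mean difference of -1.25 ± 0.47 (SD, n = 3).

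The probes listed for both PGRP-SC1b and PGRP-SC1a, a pair of closely similar secreted amidases, gave lower ratios than any of the 5 genes. The first probe was at -2.04, -1.46 and -1.88 on replicates 3, 4 and 6. The second probe was at -1.95, -1.52 and -2.01. Both probes were below 0 on every array, and on each array they differed from each other by at most 0.13. Their means were -1.79 ± 0.30 (adjusted p = 3.42e-05) and -1.83 ± 0.27 (adjusted p = 2.23e-05; SD, n = 3 each), or 28.9% and 28.2% of the reference in the likely direction and 346% and 355% with the ratio turned. Lower means were found for 0.791% and 0.683% of all features, or 99.2% and 99.3% with the ratio turned. The SDs of these probes were larger than those of 95.2% and 92.7% of features. A plain one-sample test gave them adjusted p of 0.0884 and 0.0838. Which of the genes contributed to these signals cannot be told apart. In the gene table PGRP-SC1b and PGRP-SC2 are neighbouring coding genes on 2R, and PGRP-SC1a lies 1 coding gene away. Minus PGRP-SC2, the mean ratio of the shared probes was -0.94, -0.63 and -0.46 on the 3 arrays, a difference of -0.68 ± 0.24.

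Among the signalling members, PGRP-LA, which modulates Imd signalling in barrier epithelia, gave ratios of -0.80, -1.16 and -1.41 on replicates 3, 4 and 6. Every array placed it below the reference. The mean of -1.12 ± 0.31 (SD, n = 3; limma adjusted p = 2.94e-04) corresponds to 45.9% of the reference (95% interval 38.1% to 55.2%). The SD of PGRP-LA was larger than that of 95.7% of features, and a plain one-sample test gave an adjusted p of 0.115. PGRP-SC2 and PGRP-LA had nearly equal means, and their order differed between arrays, with a difference of -0.0095 ± 0.28, so that these neighbours in the order did not differ beyond their spread.

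PGRP-LF, a membrane protein without a signalling domain that binds PGRP-LC and inhibits it, was at -0.30, -0.20 and -0.55 on replicates 3, 4 and 6. All arrays lay below 0, with replicate 6 lowest. The mean was -0.35 ± 0.18 (SD, n = 3), or 78.2% of the reference (95% interval 68.6% to 89.3%; 128% with the ratio turned), with a limma adjusted p of 0.0128. This call was lost without replicate 3, where the mean was -0.38 and the adjusted p 0.0761, and over its 12 alternatives the adjusted p ranged from 0.00455 to 0.181. PGRP-LE, the intracellular sensor of the Imd pathway, was at 0.083, -0.060 and 0.12. Its arrays lay on both sides of 0. The mean of 0.048 ± 0.096 did not pass (adjusted p = 0.59; 95% interval -0.11 to 0.20), and its sign turned to -0.052 on receptor centring. The interval spans 92.9% to 115% of the reference.

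In order of their mean ratios the members stood as PGRP-SC2, PGRP-LA, PGRP-LF, PGRP-LE and PGRP-LB. PGRP-LA was below PGRP-LF on every array, with a difference in ratio of -0.77 ± 0.25, and PGRP-LF was below PGRP-LE on every array, with -0.40 ± 0.27 (SD, n = 3 each). PGRP-LB and PGRP-LE, at the top of the order, differed by 0.069 ± 0.13, less than the spread between arrays. PGRP-LA, PGRP-LC and PGRP-LF follow each other as coding genes on 3L, so that the measured genes of that cluster were both lower and differed in size, with PGRP-LC between them unmeasured.

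**Figure D2:**
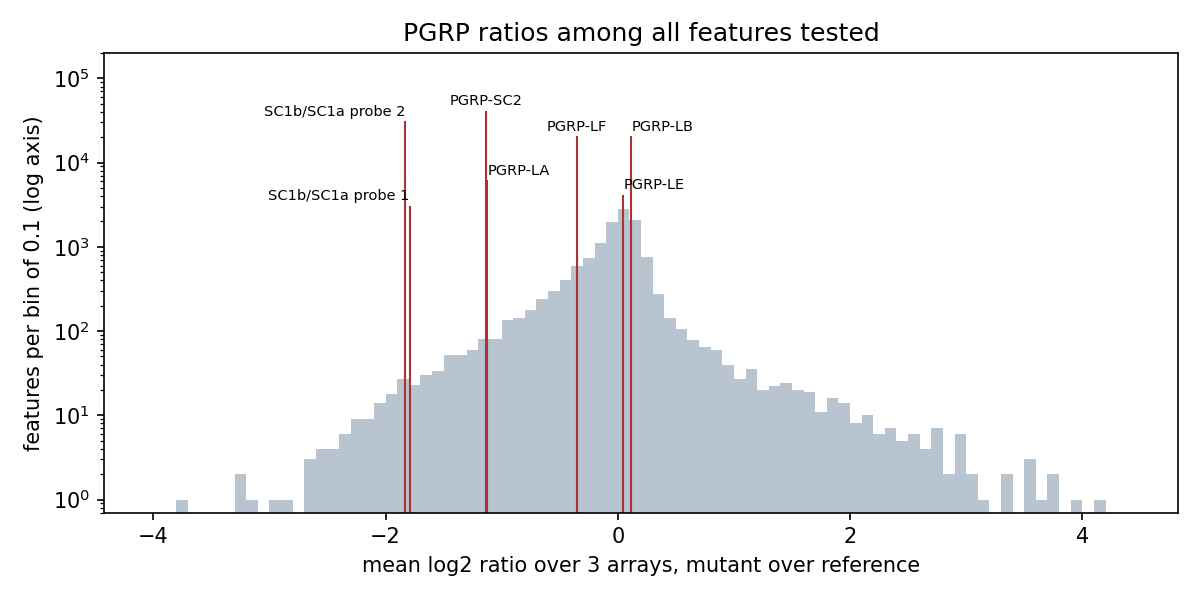
Number of features per bin of mean log2 ratio over the 3 arrays (logarithmic vertical axis), with vertical lines at the measured PGRP genes and at the probes shared by PGRP-SC1b and PGRP-SC1a. PGRP-SC2 and PGRP-LA share a place in the lower tail, the shared probes lie further out, and PGRP-LB and PGRP-LE stand in the central peak.

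The amidases and the signalling members did not separate as classes among the 5 genes. The mean ratio of PGRP-SC2 and PGRP-LB was -0.53, -0.41 and -0.59 on replicates 3, 4 and 6. That of PGRP-LA, PGRP-LE and PGRP-LF was -0.34, -0.48 and -0.62. Amidases minus signalling members gave -0.19, 0.067 and 0.026, a mean of -0.032 ± 0.14 (SD, n = 3) whose sign differed between arrays and which turned to 0.047 without replicate 3. Each class held members that passed as lower, 1 of 2 amidases and 2 of 3 signalling members, and a member that did not pass. With the average of the shared PGRP-SC1b and PGRP-SC1a probes added as a further amidase, a choice made after seeing the data, the difference was -0.68, -0.29 and -0.43, a mean of -0.47 ± 0.19. The class comparison therefore turns on whether those probes are counted. No p-value is given, because members are not replicates of a class.

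**Figure D3:**
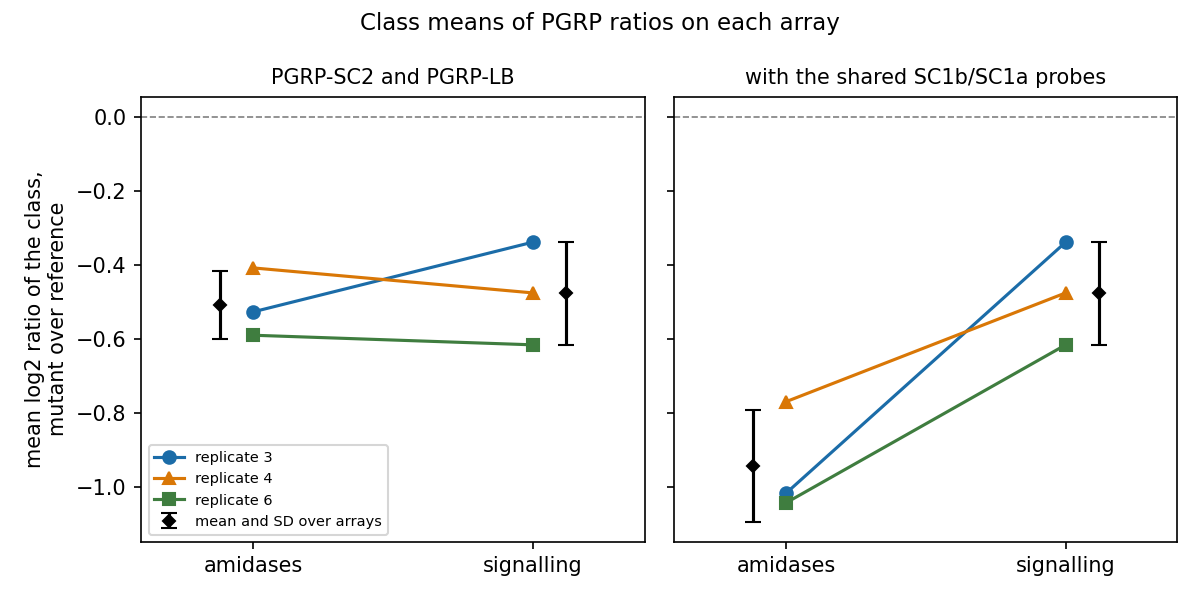
Mean log2 ratio of amidases and of signalling members on each array, joined by lines, with diamonds for the mean and SD over 3 arrays. On the left, with PGRP-SC2 and PGRP-LB as amidases, the lines run both ways. On the right, with the shared PGRP-SC1b and PGRP-SC1a probes added as 1 amidase, the amidases lie lower on all arrays.

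The arrays differed in the size of the ratios. Replicate 6 held the ratio farthest from 0 for 5 of 5 members, as it did for 44.0% of all features. It also had the widest spread over probes (SD 0.579, against 0.473 and 0.462 on replicates 3 and 4). Each SD covers the probes with a value on that array, 18991, 14097 and 14069 on replicates 3, 4 and 6, so the probe sets differ. By rank within the array, 3.48%, 4.24% and 2.20% of features lay below PGRP-SC2 on replicates 3, 4 and 6. For PGRP-LA these shares were 6.08%, 2.29% and 2.49%. With the ratio turned they would be 96.5%, 95.8% and 97.8% for PGRP-SC2 and 93.9%, 97.7% and 97.5% for PGRP-LA. PGRP-LB varied most in rank, from 50.9% and 58.8% to 90.2% on replicate 6 (48.9%, 40.9% and 9.79% turned). With the arrays scaled to the same spread, PGRP-SC2 stood at -1.11, PGRP-LA at -1.11 and PGRP-LF at -0.34, and all 3 still passed.

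The remaining PGRP genes with a probe, PGRP-SB1, an amidase of the fat body response, and PGRP-SB2, a gene next to it on 3L, did not pass. PGRP-SB1 was at 0.026, -0.16 and 0.028, and PGRP-SB2 at 0.097, -0.16 and -0.020 on replicates 3, 4 and 6. Both had values on either side of 0, with means of -0.034 ± 0.11 and -0.027 ± 0.13 that were positive on uncentred values and without replicate 4 (0.027 for PGRP-SB1 in either case; 0.034 and 0.038 for PGRP-SB2). By limma 0 of these 2 genes passed, and 0 had an unadjusted p under 0.05, also in a plain one-sample test.

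Downstream of the sensors, the Imd pathway list had members in both directions. The median of the 20 genes tested was -0.14, and 11 of them passed, 9 as lower (45%, against 23.6% of all features) and 2 as higher (10%, against 13.4%). Rel, which encodes Relish itself, was higher at 1.41, 1.08 and 0.96 on replicates 3, 4 and 6 (mean 1.15 ± 0.23; adjusted p = 1.08e-04). The lower genes with the largest ratios were casp at -1.28 ± 0.31 (adjusted p = 1.6e-04), scny at -0.96 ± 0.10 and CYLD at -0.68 ± 0.09 (SD, n = 3). The casp product, Caspar, blocks the cleavage of Relish, and scny and CYLD encode enzymes that remove ubiquitin. IKKbeta, named after its values were seen, was the other higher member at 0.65 and encodes the kinase that acts on Relish. The remaining lower members, also named after their values were seen, were Uev1A at -0.61, akirin at -0.54 and trbd at -0.42. They further included dnr1 at -0.39, the pathway's own gene imd at -0.31 and key at -0.29. Of these, trbd, dnr1, imd and key did not pass without replicate 3. The call of imd was also lost without replicate 6 (-0.24; limma adjusted p = 0.0637). Without replicate 3 there were 5 lower members in place of 9. Tak1, the remaining gene of the list, was not tested.

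The Toll pathway list passed at about the rate of all features, with 37.5% called against 37.0%. It had 2 higher and 4 lower members among 16 tested (25% lower, against 23.6% of all features), and their median of -0.040 became 0.021 when the deposited values were left uncentred. Pli, which encodes Pellino, was at -1.58 ± 0.17 (adjusted p = 1.56e-05), Myd88, the adaptor of the receptor, at -1.17 ± 0.29, and cact, the inhibitor that retains NF-κB factors in the cytoplasm, at -0.57 ± 0.08. The NF-κB factor gene dl was higher at 0.48 ± 0.16, as was Dif, named after its values were seen, at 0.33, which did not pass without replicate 3 (0.24; adjusted p = 0.13) or on receptor centring (0.23; adjusted p = 0.0561). Without replicate 3 the counts were 1 higher and 3 lower. On the deposited values 4 were higher and 4 lower.

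**Figure D4:**
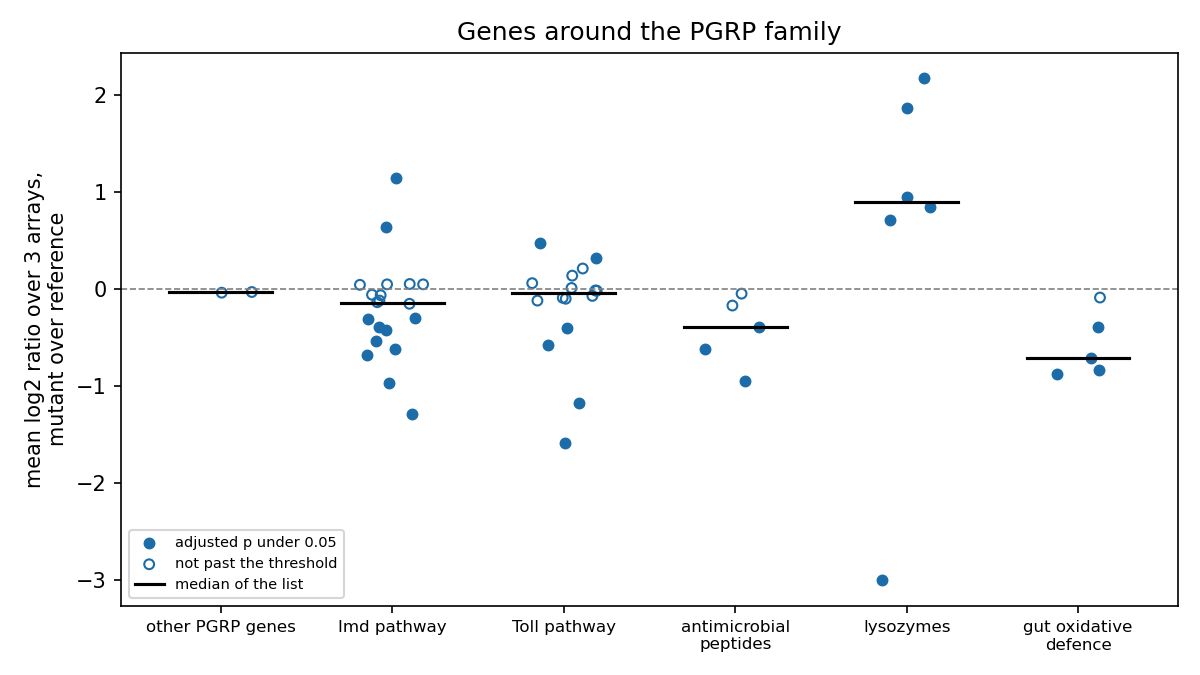
Mean log2 ratio over 3 arrays of the genes around the PGRP family, in 6 lists. Filled circles passed limma at an adjusted p under 0.05, open circles did not, and bars are list medians. The Imd and Toll lists reach in both directions, the lysozymes lie mostly above 0 and the antimicrobial peptides and oxidative defence genes below it.

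Of 20 antimicrobial peptide genes written, 5 were tested, 0 of them higher and 3 lower, with a median of -0.38 (0 higher and 3 lower also at an unadjusted p under 0.05). Over all features 13.4% were higher and 23.6% lower, which also stands beside the counts of lysozymes and oxidative defence genes that follow. Def, a defensin, was at -0.80, -0.66 and -1.39 on replicates 3, 4 and 6, AttD, an attacin, at -0.49, -0.40 and -0.96, and DptB, a diptericin, at -0.40, -0.048 and -0.71. All values were below 0, and replicate 6 was lowest for each. The call of DptB (adjusted p = 0.0406) was lost without replicate 3 (adjusted p = 0.188), without replicate 6 (adjusted p = 0.11) and with robust eBayes (adjusted p = 0.0569), and without replicate 6 the median was -0.22. Of the other enzymes that attack peptidoglycan, the lysozymes, 5 of 6 were higher and 1 was lower, with a median of 0.90 that was 0.55 without replicate 6. LysS was at 2.18 ± 0.19, LysP at 1.87 ± 0.91 and LysE at 0.95 ± 0.62, while LysX was at -3.0 ± 0.31. Several of these genes are close copies, and whether a probe detects more than 1 of them is not given. LysB, named after its values were seen, did not pass without replicate 3 (0.88; adjusted p = 0.0805), on receptor centring (0.62; adjusted p = 0.0528) or with robust eBayes (adjusted p = 0.0776). Of 5 genes of oxidative defence, 0 were higher and 4 lower, with a median of -0.70, also without adjustment. The catalase gene Cat was at -0.87 ± 0.13, Prx6c, a peroxiredoxin gene, at -0.83 ± 0.18 and Irc at -0.70 ± 0.23. The gene mol, which encodes a maturation factor of the oxidase Duox, was at -0.39 ± 0.20 and did not pass without replicate 3 (adjusted p = 0.0768). Duox itself, named after its values were seen, did not pass (limma adjusted p = 0.40). It was at -0.23, -0.067 and 0.045 on replicates 3, 4 and 6.

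PGRP genes are also active in fat body and blood cells, so markers of tissues near the midgut were read beside them. The shares of all features given above, 13.4% higher and 23.6% lower, stand beside these counts too. The files hold ratios and no levels, so whether a marker was present at all cannot be read from them. Of 7 midgut markers tested, 5 were higher and 0 lower, with a median of 1.17, led by Mal-A1 at 3.79 ± 0.19, Amy-p at 1.48 ± 0.31 and alphaTry at 1.27 ± 0.17, which encode digestive enzymes. The other tested midgut markers included the regulator genes GATAe at 0.012 and nub at -0.13, which did not pass, and nub is also in the Imd list. Of 4 fat body markers, 0 were higher and 3 lower, with a median of -0.69. The lower ones ran from Fbp1 at -1.01 ± 0.31 and Lsp2 at -0.92 ± 0.34 to Fbp2 at -0.46 ± 0.31. Fbp2 did not pass without replicate 3 (adjusted p = 0.141). The remaining marker, apolpp, was at -0.076 and did not pass (limma adjusted p = 0.60). It was at 0.25 on replicate 4. Its mean was 0.016 without replicate 6 and -0.24 without replicate 4, where it passed (limma adjusted p = 0.0385). Of 10 hemocyte markers, 1 was higher and 4 lower, with a median of -0.12. The hemocyte markers Sr-CI at -1.92 ± 0.50, crq at -1.14 ± 0.15 and Col4a1 at -0.67 ± 0.25 were lower. Hml, the higher marker, was at 0.23, and Pxn, also lower, at -0.28, both named after their values were seen. Neither passed without replicate 3 or without replicate 6. The markers eater at 0.11, PPO1 at 0.050, PPO2 at -0.042, NimC1 at -0.065 and vkg at -0.17 did not pass. Without replicate 3 no hemocyte marker was higher and 3 were lower. Of 4 visceral muscle markers 1 was higher, up at 0.40, and without replicate 3 it did not pass (adjusted p = 0.0679). Of 3 Malpighian tubule markers 2 were lower, Irk2 at -1.03 and NaPi-T at -0.30, the latter not without replicate 3 (adjusted p = 0.105). The remaining tubule marker, Irk3, was at 0.056 and did not pass. Of 2 salivary gland markers 1 was higher, Sgs1 at 0.26, but not without replicate 3 (adjusted p = 0.109) or on receptor centring (adjusted p = 0.0786). The part of these tissues in the lower PGRP ratios was not tested.

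The genes whose ratios lay nearest to those of PGRP-SC2, by Euclidean distance over the 3 arrays among all named genes, were Gdap2 at a distance of 0.065, comm at 0.072 and mthl10 at 0.074. Gdap2 was at -1.01, -0.89 and -1.44 on replicates 3, 4 and 6, against -1.06, -0.86 and -1.48 for PGRP-SC2. With 3 arrays such likeness describes these values alone.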

How the data were processed

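Values were read from the deposited table, which holds 1 log2 ratio per probe and array, with the log base settled from the values: after adding a constant found for each array and taking the power of 2, 100% of values under 1.5 fell on steps of 0.001 (tolerance 0.02 of a step). The RNA had been amplified through in vitro transcription, per the labels. For scanner, background correction, spot filter and array build the sources used here give nothing. Probes were named through the platform annotation, in which 10828 of 20000 probes had 1 symbol, 227 had several and 8945 had none. Of the 10828, 10824 were found by gene ID in RefSeq genes of the assembly Release 6 plus ISO1 MT, and 0 symbols were updated. The coordinates in that assembly served only to order the coding genes along each chromosome. Values were centred on the median of their array and averaged over the probes of a gene. Features present on all 3 arrays were tested against 0, two-sided, in limma 3.58.1 (lmFit, eBayes; R 4.3.3), with Benjamini-Hochberg adjustment over 13027 features and a threshold of 0.05. Probes without a single symbol stayed in the fit unnamed. With 1 reference pool as control, the spread of the wild type is left out. The number of arrays limits the precision, and signal over background is unknown.

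The members, the gene lists and the tests were chosen with earlier results of these data known. The text names all members, EcR, up to 4 genes past the threshold per pathway list and 3 per marker list by absolute ratio, and the 3 genes nearest to the member with the largest ratio. A gene outside this rule is said to be named after its values were seen, and the marker genes that did not pass were also chosen so. Exceptions are PGRP-SB1 and PGRP-SB2, which lie outside the rule and are given although neither passed. On simulated data (13027 features, 200 changed) all changes of 0.5, 1 and 2 were recovered, and 10.3% of calls were false. The simulated noise was normal and independent between features, with variances taken from the fit, and few features were changed. These rates therefore do not carry over to the data, where 37.0% of features passed. The alternatives tried are given in the closing section. Python 3.11.15 with pandas 2.3.3, numpy 2.4.6 and matplotlib 3.10.9 did the other steps.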

Additional observations from a re-analysis of the deposited data

How the results depend on the processing

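The number of features past the threshold was 4824, and it was 3122 at an adjusted p under 0.01, 1772 with a change of at least 1.5-fold and 2787 to 4614 with 1 replicate left out, lowest without replicate 3. Of the calls, 3080 were lower and 1744 higher, against 2730 and 3040 on the values as deposited and 4196 and 959 on receptor centring. The 3 calls among PGRP members were also made as deposited, with the same spread, with quantile normalization, on receptor centring, on at least 2 arrays, with each probe on its own and with robust eBayes, and 2 to 3 were made with 1 replicate left out. PGRP-LF was not called at an adjusted p under 0.01 and did not reach 1.5-fold. A plain one-sample test, which shares no variance between features, called 4 features (4370 at an unadjusted p under 0.05), and 0 PGRP members (2 unadjusted), 0 Imd genes (8), 0 Toll genes (6), 0 antimicrobial peptides (0), 0 lysozymes (2) and 0 oxidative defence genes (3); it has 2 degrees of freedom per feature, against 6.88 in limma. PGRP-LE turned to -0.052 on receptor centring. The Imd count of 11 was 7 to 11 with 1 replicate left out, lowest without replicate 3, and 6 at 1.5-fold. The Toll count of 6 was 2 at 1.5-fold and 14 of 24 with each probe on its own, which counts probes rather than genes. With the shared PGRP-SC1b and PGRP-SC1a probes, an alternative added after seeing the data, the median of the members was -0.74 and amidases minus signalling members -0.47. Without PGRP-LF that difference was 0.030. With 1 replicate left out it ranged from -0.081 to 0.047, and the median of the members from -0.43 to -0.25. No paired analysis was possible because all mutant samples form 1 group against a common reference.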
